A study of Caenorhabditis elegans with 12 samples.

Results

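The fatty acid desaturases FAT-1 to FAT-7 of *Caenorhabditis elegans* put double bonds into fatty acyl chains, and their 7 genes were followed here in whole worms, chosen by name as a family. The choice also rested on the measured levels of *fat-7*, which was selected for its strong fall upon *cco-1* RNAi, so the changes upon *cco-1* RNAi are given below as a description, with no p for the members and nothing inferred from how many passed the threshold there. The deposited table held 46920 loci, of which 14867 passed the low-count filter and were tested. All 7 desaturase genes were among them, and none was lost to the filter.

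Poly(A) RNA was sequenced from 12 libraries of worm populations harvested at the L4 larval stage after growth at 20ºC, 3 for each of 4 groups. The groups were the wild type N2 (WT) fed bacteria with the empty vector (EV), WT fed *cco-1* RNAi bacteria together with EV bacteria, and *lin-40*(*yth27*) mutants fed each of these diets. The gene *cco-1*, listed in the table as *cox-5B*, encodes a nuclear subunit of cytochrome c oxidase, and its RNAi is a standard trigger of mitochondrial stress. The gene *lin-40* encodes an MTA-type subunit of the chromatin remodelling complex NuRD, and *yth27* was its only allele sequenced. Each library came from a lysate of whole worms, with all tissues pooled.

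In the worm, a delta-9 desaturase introduces the first double bond. FAT-5 acts mainly on palmitoyl-CoA, while FAT-6 and FAT-7 act on stearoyl-CoA and make oleic acid. FAT-2 then turns oleic acid into linoleic acid by a delta-12 desaturation, FAT-1 adds the omega-3 double bond, and FAT-3 (delta-6) and FAT-4 (delta-5) complete the polyunsaturated fatty acids together with the elongases. FAT-6 and FAT-7 are close paralogs that are made largely in the intestine and can replace each other, and their genes are known targets of the nuclear hormone receptors NHR-49 and NHR-80, of the SREBP homolog SBP-1 and of the Mediator subunit MDT-15.

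The 7 genes, WBGene00001393 (*fat-1*) to WBGene00001399 (*fat-7*) in the order of their names, lie on 2 chromosomes of WBcel235. The polyunsaturated fatty acid desaturase genes form pairs on chromosome IV: *fat-4* (9799429 to 9802226, plus strand) ends 796 bp before *fat-3* (9803023 to 9806119, plus strand), and *fat-1* (13315644 to 13318811, plus strand) ends 5061 bp before *fat-2* (13323873 to 13326395, plus strand). The delta-9 gene *fat-6* (11913692 to 11915687, minus strand) is also on chromosome IV. The other delta-9 genes, *fat-7* (7151353 to 7153146, minus strand) and *fat-5* (17725004 to 17726818, plus strand), are on chromosome V. *fat-5* overlaps *twk-42* on the opposite strand by 28 bp of exon, and *twk-42* was at 6.42 to 11.65 CPM over the 12 libraries (CPM is the read count as a rate of the TMM-scaled library size), so reads in that stretch could belong to either gene. *fat-6* and *fat-7* are similar in sequence, and how reads shared by both were treated was not tested.

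Library totals ran from 18553441 to 22538088 counts, with a median of 20230231. The RNAi target was read first: in WT, *cox-5B* was at 516.9, 474.1 and 492.3 CPM with EV against 142.6, 143.9 and 192.9 CPM upon *cco-1* RNAi, and at 412.7, 425.2 and 409.4 CPM in *lin-40*(*yth27*) on EV and 176.6, 223.6 and 257.2 CPM upon *cco-1* RNAi. Every RNAi library was below every EV library in both genotypes, by −1.63 ± 0.16 (log2 fold change ± SE) in WT and −0.92 ± 0.16 in the mutant. The *lin-40* transcript itself was at 94.17 to 148.5 CPM in WT on EV and 100 to 132.8 CPM in the mutant on EV, so its level did not tell the genotypes apart and is no check of the mutation. In whole worms, fewer cells of a type and less RNA per cell cannot be told apart.

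Among the delta-9 desaturase genes, *fat-7* differed most. On EV, it was at 1.519, 2.037 and 1.957 CPM in the 3 WT libraries, from 27, 44 and 38 counts. In *lin-40*(*yth27*) on EV it was at 24.31, 25.59 and 33.23 CPM, from 461, 610 and 717 counts. Every mutant library lay above every WT library, and the lowest mutant value was far above the highest WT value.

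The difference between the genotypes on EV was not the contrast used to choose *fat-7* and was tested. It shares the EV libraries with the changes upon RNAi that chose *fat-7*, so its p is no independent support. *fat-7* was higher in *lin-40*(*yth27*) by 3.91 ± 0.67 on the log2 scale (edgeR, adjusted p = 0.0362), in 3 of 3 libraries, and the summed counts per library totals gave a ratio of 16.4 (95% exact interval 13.5 to 20.1, counting error only). It ranked 15th highest of 14867 genes by this change. It was the only desaturase called, 1 of 7, where 0.377% of all genes tested were called. The size of the difference hardly moved with the setting, from 3.76 to 4.03 over 20 alternatives, but the call did: 9 of the 20 passed the threshold, with adjusted p from 0.000204 to 0.275. The call was lost without any 1 of the 6 EV libraries, and also without WT *cco-1* RNAi replicate 2 or 3 or *lin-40*(*yth27*) *cco-1* RNAi replicate 2.

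Genes of the adult stage had higher sums in the same mutant libraries. A list of 7 such genes, the vitellogenin genes *vit-2*, *vit-3*, *vit-5* and *vit-6*, the adult cuticle collagen gene *col-19*, the eggshell gene *cbd-1* and the yolk receptor gene *rme-2*, summed to 662.3, 3956 and 2756 CPM in the WT EV libraries and to 6219, 8078 and 8368 CPM in the mutant EV libraries. None of the 7 genes was at 0 in any group. For 5 of them every mutant library on EV was above every WT library on EV, where 26.6% of all genes had no overlap in either direction. The median log2 difference of the 7 was 1.49, and 0 of 7 were called by edgeR or DESeq2 or had an unadjusted p under 0.05. Their part in the difference of *fat-7* was not tested. Within WT on EV, replicate 1 had the lowest sum, 662.3 against 3956 and 2756 CPM, and the lowest *fat-7* level, 1.519 against 2.037 and 1.957 CPM. The WT *cco-1* RNAi replicate 2 had a sum of 4336 CPM, above all 3 WT EV libraries, with 1 *fat-7* count. The 5 intestinal markers that could be matched (*ges-1*, *elt-2*, *vha-6*, *ifb-2* and *act-5*) summed to 4135 to 5928 CPM in EV-fed WT and 3397 to 3985 CPM in EV-fed mutants.

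**Figure D1:**
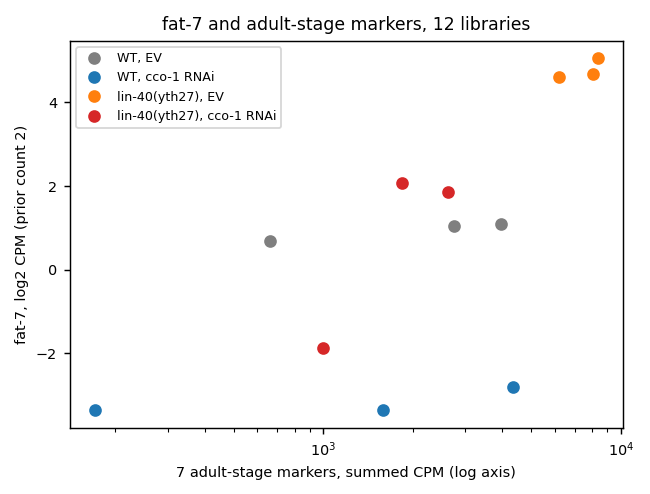
*fat-7* level (vertical axis, log2 CPM with a prior count of 2) against the summed CPM of 7 adult-stage marker genes (horizontal axis, log scale), 1 point per library, coloured by group. The 3 *lin-40*(*yth27*) EV libraries have the highest sums, 6219 to 8368 CPM, and the highest *fat-7* levels, while WT *cco-1* RNAi replicate 2 has a sum of 4336 CPM and 1 *fat-7* count.

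Upon *cco-1* RNAi, *fat-7* was nearly absent from WT, with 0, 1 and 0 counts, or 0, 0.04461 and 0 CPM. A count of 3 in a library would be worth 0.146 to 0.152 CPM in these 3 libraries, so a level below that could go undetected at this depth. In WT the EV libraries held 109 *fat-7* counts against the 1 upon RNAi, a ratio of 108 with a 95% exact interval of 19 to 4310 for counting error only. The fitted change was −6.41 ± 1.28, the 2nd lowest of the 14867 genes.

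In *lin-40*(*yth27*) upon *cco-1* RNAi, *fat-7* was at 0.1763, 3.522 and 4.119 CPM, from 4, 76 and 65 counts. Replicate 1 stood far below the other 2 libraries, which were above all WT EV libraries, and all 3 were below every mutant library on EV. The change upon RNAi in the mutant was −3.43 ± 0.65, and −2.84 ± 0.28 without replicate 1. The adult-stage genes described above had lower values in the same contrast: their sums were 6219 to 8368 CPM on EV and 1001 to 2635 CPM upon RNAi. For 5 of 7 the groups did not overlap, where 20.8% of all genes had no overlap in either direction. The median log2 change was −2.07, and 0 of 7 were called by edgeR, 4 had an unadjusted p under 0.05 and DESeq2 called 1. Their part in the falls of *fat-7*, *fat-5* and *fat-6* in the mutant was not tested.

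Between the genotypes upon *cco-1* RNAi, *fat-7* was higher in the mutant by 6.89 ± 1.24 (edgeR, adjusted p = 0.0403), in 3 of 3 libraries, and this was the highest log2 difference of the 14867 genes. The ratio of the summed counts, 145 against 1, was 139.5 (95% exact interval 24.7 to 5547, counting error only). This comparison shares the WT *cco-1* RNAi libraries with the contrast that chose *fat-7*, so its p is no independent support. *fat-7* also passed the low-count filter through its EV libraries: in a fit on the 6 *cco-1* RNAi libraries alone it did not pass and was not tested. Without *lin-40*(*yth27*) replicate 1 the difference was 7.47 with an adjusted p of 0.000172, and leaving out any 1 of the other 11 libraries lost the call, with adjusted p up to 0.167, for a difference of 6.41 to 8.72. Here too *fat-7* was 1 of 7 members called, where 0.626% of all genes were called. The adult-stage sums overlapped between these groups, at 170.5, 4336 and 1590 CPM in WT and 1001, 2635 and 1838 CPM in the mutant, and the mutant library lowest in the sum, replicate 1, was also the lowest in *fat-7*.

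The second delta-9 gene of chromosome V, *fat-5*, had 11.59, 5.093 and 6.077 CPM in WT with EV against 1.139, 1.071 and 1.258 CPM upon *cco-1* RNAi. All 3 RNAi libraries lay below the EV libraries and close to each other, by −2.7 ± 0.48. In *lin-40*(*yth27*) it was at 23.46, 9.691 and 9.871 CPM on EV and 2.248, 5.098 and 5.514 CPM upon *cco-1* RNAi, a change of −1.75 ± 0.44, again with no overlap. On EV, replicate 1 stood above the other 2 libraries in both genotypes.

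The genotypes overlapped in *fat-5* on EV, where the mutant differed by 0.92 ± 0.43 (edgeR, adjusted p = 0.339), or by 0.37 without mutant replicate 1. Upon *cco-1* RNAi every mutant library was above every WT library. The difference of 1.88 ± 0.48 did not pass the test (adjusted p = 0.11). It passed with DESeq2 (1.88, adjusted p = 0.00785) and without mutant replicate 1 upon *cco-1* RNAi (2.21, adjusted p = 0.0454).

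The abundant paralog of *fat-7*, *fat-6*, had 489.2, 265.8 and 408.7 CPM in WT with EV against 176.1, 136.8 and 204.6 CPM upon *cco-1* RNAi, a change of −1.17 ± 0.21 with no overlap. In *lin-40*(*yth27*) it was at 264.6, 258.9 and 276.9 CPM on EV and 160.7, 163.5 and 195.8 CPM upon *cco-1* RNAi, a change of −0.62 ± 0.21, also with no overlap. The WT EV libraries were widely spread and the mutant EV libraries were close together, near the lowest of them. On EV the mutant differed by −0.54 ± 0.21 (edgeR, adjusted p = 0.259), opposite in sign to *fat-7*, and upon *cco-1* RNAi by 0.01 ± 0.21 (adjusted p = 0.991), a value whose sign changed with the scaling.

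**Figure D2:**
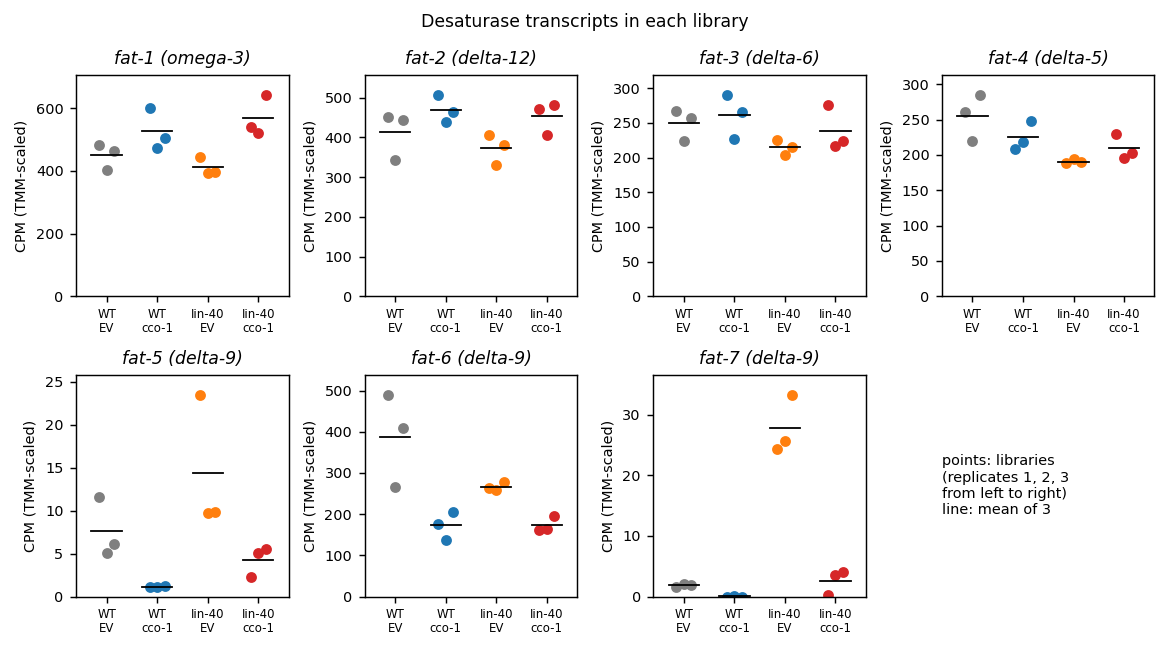
Level of each desaturase transcript (vertical axes, TMM-scaled CPM, starting at 0) in the 4 groups, with 1 point per library and a line at the mean of 3. On EV, *fat-7* is at 24.31 to 33.23 CPM in the mutant and 1.519 to 2.037 CPM in WT, and *fat-1* to *fat-4* stay within a narrow range in all groups.

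Per kilobase of exon (RPKM, the scale on which genes can be compared), the 3 delta-9 transcripts together went from 341 ± 99.5 with EV to 149 ± 29.3 upon *cco-1* RNAi in WT, and from 266 ± 11.6 to 155 ± 19.2 in the mutant (SD, n = 3 each). Most of this sum was *fat-6* in every group, at 97.5%, 99.3%, 85.9% and 96.1% in the same order. With EV, the share of *fat-7* was 0.52 ± 0.23% for WT and 9.22 ± 1.36% for the mutant, and it was 0.011 ± 0.019% and 1.43 ± 1.14% in these genotypes upon *cco-1* RNAi. The share of *fat-5* was 1.98 ± 0.45% and 4.86 ± 2.62% on EV, and 0.71 ± 0.093% and 2.47 ± 0.89% upon *cco-1* RNAi. The higher *fat-7* level of the mutant on EV thus came with a delta-9 sum whose mean was below that of WT, within the spread of the WT libraries.

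**Figure D3:**
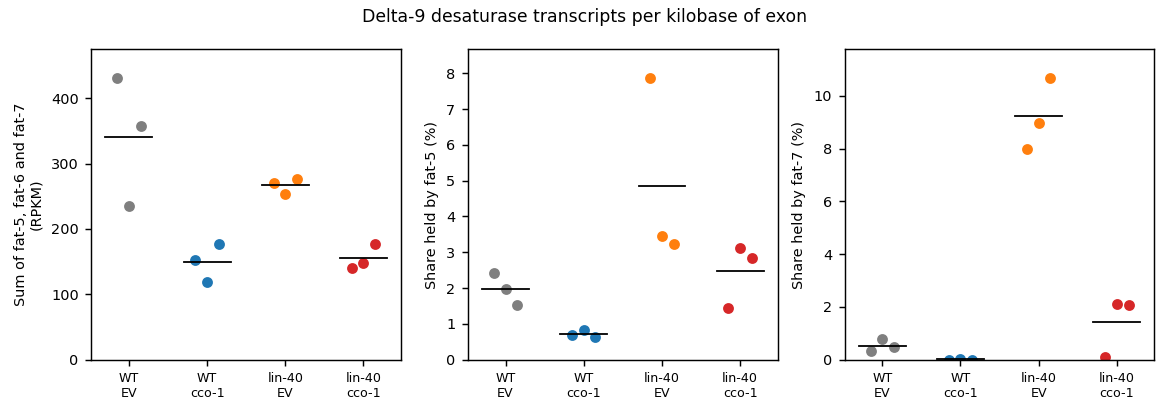
Sum of the *fat-5*, *fat-6* and *fat-7* transcripts (left, RPKM) and the percentage of that sum held by *fat-5* (middle) and *fat-7* (right), 1 point per library, with a line at the mean of 3. The *fat-7* share on EV averages 9.22% in the mutant and 0.52% in WT.

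The genes of polyunsaturated fatty acid synthesis moved less. *fat-2*, which makes linoleic acid, was at 451, 343.3 and 443.9 CPM in WT on EV, 507.4, 437.9 and 464.8 CPM in WT upon *cco-1* RNAi, 404.8, 331.4 and 380.4 CPM in the mutant on EV and 472.4, 406.9 and 481.8 CPM in the mutant upon *cco-1* RNAi. *fat-1*, the omega-3 desaturase gene, was at 482.9, 402.5 and 463.6 CPM in WT on EV, 600.7, 472.9 and 503.4 CPM in WT upon *cco-1* RNAi, 444.3, 393.8 and 395.1 CPM in the mutant on EV and 538.1, 520.2 and 642.5 CPM in the mutant upon *cco-1* RNAi. Both genes overlapped between EV and RNAi in WT, and in the mutant every RNAi library was above every EV library, although for *fat-2* only by the distance from 404.8 to 406.9 CPM. The changes upon RNAi were 0.23 ± 0.14 in WT and 0.46 ± 0.14 in the mutant for *fat-1*, and 0.19 ± 0.14 and 0.29 ± 0.14 for *fat-2*. Their sign was opposite to that of the delta-9 genes.

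*fat-3*, the delta-6 desaturase gene, ran from 203 to 290.6 CPM over all 12 libraries, with changes upon RNAi of 0.07 ± 0.13 in WT and 0.15 ± 0.13 in the mutant, and overlapping groups in both. Its neighbour *fat-4*, the delta-5 desaturase gene, had 261, 219.9 and 285.3 CPM in EV-fed WT against 187.9, 194.2 and 189.5 CPM in EV-fed mutants. These groups did not overlap, and the 3 mutant libraries were close together. The difference of −0.42 ± 0.12 did not pass the test (edgeR, adjusted p = 0.166), and it did with DESeq2 (−0.46, adjusted p = 0.0198). Upon *cco-1* RNAi *fat-4* was at 209.1 to 247.7 CPM in WT and 195.4 to 229.8 CPM in the mutant.

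For *fat-1*, *fat-2* and *fat-3*, the genotypes differed by −0.13, −0.15 and −0.22 on EV, each with an SE of 0.13 to 0.14, and by 0.11, −0.05 and −0.13 upon *cco-1* RNAi, with the same range of SE. None of the 6 differences passed the test, and the sign for *fat-1* changed with scaling by library totals (0.01 on EV and −0.05 upon *cco-1* RNAi). Groups that did not overlap between the genotypes were found for 2 of 7 members on EV (*fat-4* and *fat-7*), where 26.6% of all genes had none, and for 2 of 7 upon *cco-1* RNAi (*fat-5* and *fat-7*), where 17.2% had none. The first of these shares is near the background.

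In the order of levels (RPKM), *fat-6* (333 ± 97.1), *fat-2* (329 ± 48) and *fat-1* (318 ± 29.6) led in WT on EV and overlapped each other. They were followed by *fat-3* (167 ± 15.3) and *fat-4* (166 ± 21.5), which overlapped, and then by *fat-5* (6.87 ± 3.17) and *fat-7* (1.63 ± 0.25), which stood apart. In *lin-40*(*yth27*) on EV the order ended with *fat-7* (24.6 ± 4.28) above *fat-5* (13 ± 7.16), with no overlap between them. This was only by the distance from 21.25 RPKM for *fat-5* to 21.59 RPKM for *fat-7*, both in replicate 1. Upon *cco-1* RNAi *fat-2* and *fat-1* led in WT (375 ± 27.9 and 371 ± 47.1) and *fat-1* and *fat-2* in the mutant (400 ± 46.6 and 362 ± 32.5), overlapping in both. There *fat-6* (148 ± 29.2 in WT and 149 ± 16.7 in the mutant) had joined *fat-3* and *fat-4*, with overlap between neighbours.

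The changes upon *cco-1* RNAi were part of the choice of the members, so the counts that follow describe them and are no evidence about the family. Of the 7 members, 3 were called in WT (*fat-5*, *fat-6* and *fat-7*, all lower), where 6.25% of all genes were called and 4.08% were called lower. In *lin-40*(*yth27*) 1 was called (*fat-7*, lower), where 1.16% of all genes were called and 0.336% were called lower. Groups that did not overlap were found for 3 of 7 members in WT, where 24.3% of all genes had none, and for 6 of 7 in the mutant, all but *fat-3*, where 20.8% had none. The WT comparison and the mutant comparison each had their own EV libraries.

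Whether the changes upon RNAi differed between the genotypes was tested as an interaction, coded as the mutant change minus the WT change. The differences were 2.98 ± 1.73 for *fat-7* (edgeR, adjusted p = 0.497), 0.96 ± 0.63 for *fat-5* (adjusted p = 0.545) and 0.55 ± 0.29 for *fat-6* (adjusted p = 0.476). For *fat-1* to *fat-4* they were 0.24, 0.1, 0.09 and 0.32, with adjusted p of 0.481 to 0.857. No member was called, and 0.0% of all genes were, 0 of 14867. At an unadjusted p under 0.05 the counts were 1688 genes and 0 members, and DESeq2 called 55 genes and 0 members. A fit with the replicate number of the short sample names as a block called 1023 genes and 1 member, *fat-7*. With TMM scaling all 7 differences were above 0, while with library totals, which moved the median of all genes from −0.04 to −0.31, those of *fat-1*, *fat-2* and *fat-3* were −0.05, −0.19 and −0.18. The smaller falls in the mutant are not shown to differ from those in WT, and the WT change of *fat-7* rests on 1 count. The fall of the RNAi target *cox-5B* was also smaller in the mutant, with an interaction of 0.71 ± 0.22 (edgeR, unadjusted p = 0.00768, adjusted p = 0.394). Its part in the differences of the desaturases was not tested. The interaction also shares its libraries with the contrasts that chose *fat-7*.

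**Figure D4:**
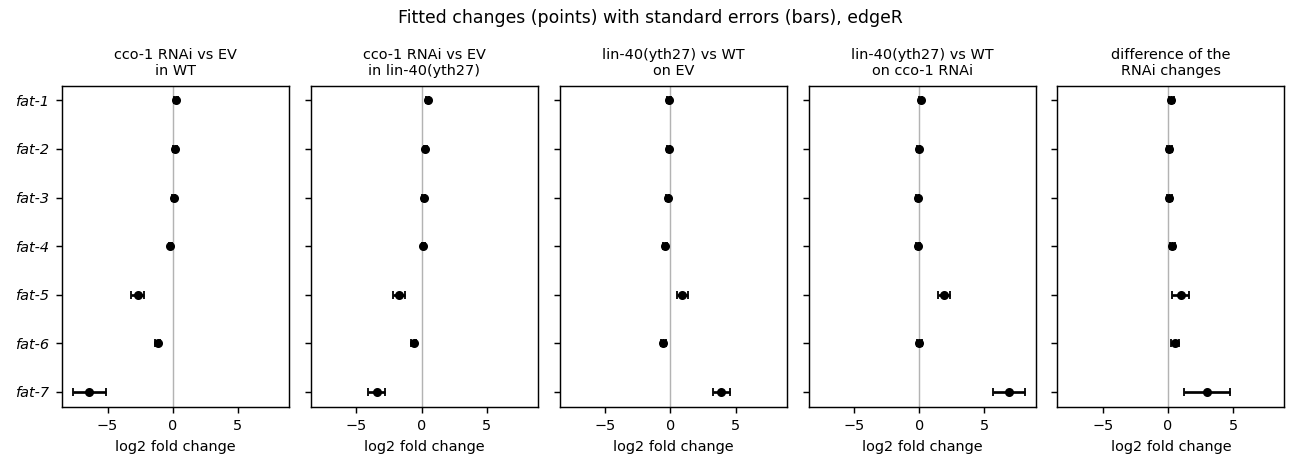
Fitted log2 fold change of each desaturase gene (horizontal axes, points) with its standard error (bars) in the 4 comparisons and in the difference of the RNAi changes. *fat-7* has the largest values in every panel, from −6.41 to 6.89, and the widest bars, and *fat-1* to *fat-4* lie between −0.42 and 0.46.

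The choice of scaling shifted all genes. With TMM scaling the median log2 change of all genes was 0.06 upon RNAi in WT and −0.03 in the mutant, and with library totals it was 0.19 and −0.18. Between the genotypes on EV it was 0.03 with TMM and 0.16 with library totals, and upon *cco-1* RNAi −0.02 and −0.16. Taken relative to the median of all genes, the *fat-7* difference on EV was 3.87 under both scalings. The median over the 7 members was −0.15 on EV and 0.01 upon *cco-1* RNAi with TMM.

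Genes around the desaturases were counted from lists. In WT upon *cco-1* RNAi, 7 of 12 genes of fatty acid elongation were lower and 0 higher, where 4.08% of all genes were called lower, with a list median of −0.54 beside 0.06 for all genes. They included *elo-6* (221 ± 7.15 against 118 ± 8.34 CPM, −0.91, edgeR adjusted p = 0.0086) and *elo-5* (167 ± 22 against 104 ± 13.1 CPM, −0.69, adjusted p = 0.0113), elongases that make monomethyl branched-chain fatty acids, and *art-1* (−0.55, adjusted p = 0.0154), which encodes a trans-enoyl-CoA reductase homolog. With library totals, which moved the median of all genes from 0.06 to 0.19, 1 of these 12 was called. No share of all genes called is given for that scaling, here or below. None of the 12 was called in the mutant upon RNAi, where the list median was −0.22, and at an unadjusted p under 0.05 the count was 3 lower, and 1 by DESeq2. In the interaction 0 of 12 were called by edgeR or DESeq2. At an unadjusted p under 0.05, 5 were higher and 0 lower, where 1688 of all 14867 genes passed in either direction. By adjusted p the falls of these elongation genes are thus not shown to differ between the genotypes.

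Of 6 genes of phosphatidylcholine synthesis, 3 were lower in WT upon *cco-1* RNAi, beside the same 4.08% of all genes. The methyltransferase gene *pmt-2* fell from 884 ± 137 to 351 ± 41.3 CPM (−1.33, edgeR adjusted p = 0.00131), the S-adenosylmethionine synthetase gene *sams-1* from 1176 ± 223 to 421 ± 132 CPM (−1.48, adjusted p = 0.00817), and the phosphotransferase gene *cept-1* from 44 ± 5.4 to 25 ± 4.93 CPM (−0.82, adjusted p = 0.0101). In *lin-40*(*yth27*) the same contrast gave −0.36, −0.29 and −0.32 for these genes, and 0 of 6 were called, with 1 lower at an unadjusted p under 0.05 and 0 by DESeq2. In the interaction edgeR called 0 of 6 and DESeq2 called 1 higher, where DESeq2 called 55 of all genes. At an unadjusted p under 0.05, 3 were higher and 1 lower, beside the same 1688 of 14867 genes. By edgeR the falls are not shown to differ between the genotypes. Among 4 genes of electron supply to desaturases, *cytb-5.1*, a cytochrome b5 gene, was the only one called in WT upon RNAi (−0.71, adjusted p = 0.0149), and 0 were called with library totals. Of 5 genes of fatty acid synthesis 0 were called, with 1 higher and 1 lower at an unadjusted p under 0.05 and 0 by DESeq2.

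None of the known regulators of the delta-9 genes passed the test. *nhr-49* (74.2 ± 1.15 CPM in WT on EV) differed by −0.05 upon RNAi in WT and −0.24 in the mutant. *nhr-80* (22 ± 1.49 CPM) differed by −0.29 and −0.37, *sbp-1* (40.2 ± 11.9 CPM) by −0.03 and −0.06, and *mdt-15* (151 ± 27.2 CPM) by 0.001 and −0.09. Between the genotypes on EV these 4 genes differed by 0.05, −0.21, −0.25 and −0.02. Of the 11 regulators listed, 0 were called by edgeR and 0 by DESeq2 in any of the 5 comparisons, and 1 higher and 1 lower had an unadjusted p under 0.05 upon RNAi in WT, and 4 lower upon RNAi in the mutant. In the comparisons of the genotypes, 0 genes of the 5 lists were called by edgeR on EV or upon *cco-1* RNAi. On EV, 4 elongation, 3 electron supply, 2 fatty acid synthesis, 1 regulator and 1 phosphatidylcholine synthesis gene were lower in the mutant at an unadjusted p under 0.05 and 0 were higher, and DESeq2 called 3 elongation genes and 1 phosphatidylcholine synthesis gene lower. Upon *cco-1* RNAi, 2 electron supply and 2 phosphatidylcholine synthesis genes were higher at that p and 1 gene each of electron supply, the regulators and phosphatidylcholine synthesis was lower, and DESeq2 called 0. No share of all genes at the unadjusted p is given for the RNAi and genotype comparisons, so such counts describe the lists only.

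Moulting markers were lower in WT upon *cco-1* RNAi. The summed level of 4 moulting genes in WT ranged from 1130 to 1629 CPM with EV and from 622 to 888 CPM upon *cco-1* RNAi, with 3 of the 4 called lower, or 1 with library totals. With TMM scaling 4.08% of all genes were called lower in this comparison. Of 5 hypodermal markers 1 was called lower there (*dpy-7*, −1.17, list median −0.18), and of 4 germline markers 1 (*glh-1*, −0.53, list median 0.02), or 0 with library totals. In EV-fed mutants the moulting sum was 880.4 to 1105 CPM, also below EV-fed WT. Of the 4 moulting genes 0 were called between the genotypes on EV, with a list median of −0.32. The part of all these markers in the changes and differences of the desaturases and of the lists was not tested.

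**Figure D5:**
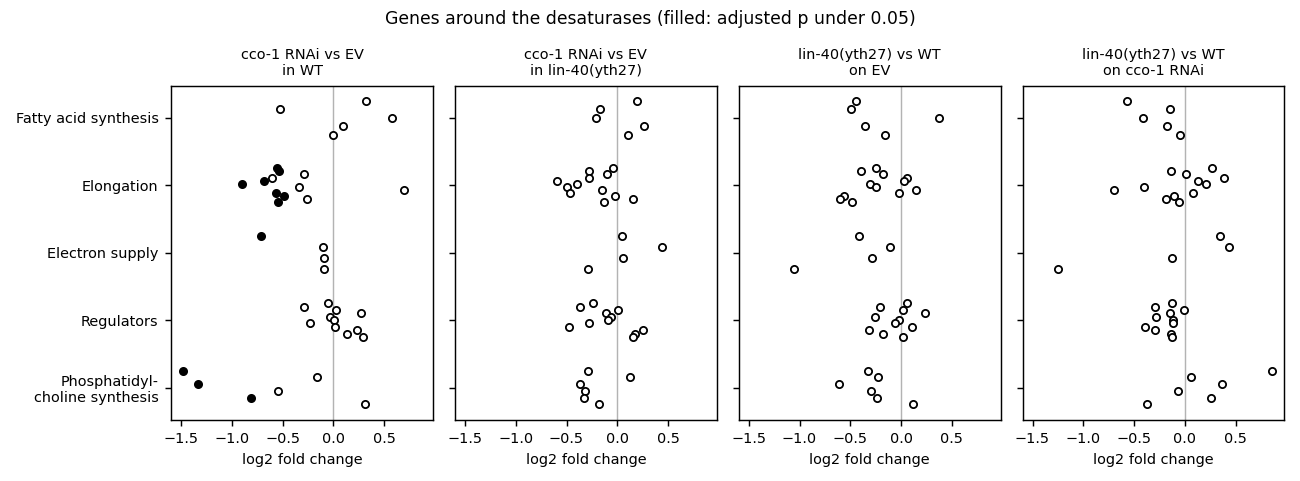
Log2 fold change (horizontal axes) of each gene in 5 lists around the desaturases in the 4 comparisons, with filled points at an adjusted p under 0.05. Filled points are seen only upon *cco-1* RNAi in WT, for 7 elongation genes, 1 electron supply gene and 3 phosphatidylcholine synthesis genes.

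Genes with a similar pattern were ranked by correlation. Over the 12 libraries, which fall into the 4 groups, the log2 CPM of *fat-7* was most like that of *kvs-5* (Pearson r = 0.953), R07C12.1 (0.949), *asp-17* (0.932), C46F2.1 (0.924) and *zig-4* (0.921). *kvs-5* encodes a voltage-gated potassium channel subunit and *asp-17* an aspartyl protease. Their levels moved less than *fat-7*: *kvs-5* averaged 21.2 ± 1.15 CPM in WT on EV, 13.1 ± 1.43 CPM in WT upon RNAi, 32.1 ± 5.18 CPM in the mutant on EV and 18.7 ± 2.98 CPM in the mutant upon RNAi. *asp-17* was at 3.62 ± 1.86, 0.41 ± 0.16, 11.1 ± 0.39 and 5.16 ± 2.93 CPM in the same order. Among the family, *fat-5* was closest to *fat-7* (r = 0.91, 13th of all genes), followed by *fat-6* (0.441), and the other members had negative values from −0.745 to −0.497. For *fat-5* the most similar genes were *acl-12* (0.95), R07C12.1 (0.946), *pyr-1* (0.939), K10D11.5 (0.938) and *scl-2* (0.937), and *fat-7* was 20th. R07C12.1 was on both lists, with EV levels of 0.72 ± 0.062 CPM in WT and 1.86 ± 0.7 CPM in the mutant. These correlations describe libraries that share their groups and scaling and carry no test.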

How the data were processed

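The authors made poly(A) libraries with a TruSeq kit and sequenced paired ends. Per the labels they used TopHat and RSEM; the sources used here do not give their genome build or annotation. The deposited table was taken to hold the authors' expected counts per locus from RSEM, because RSEM is the quantifier named and values are unequal in total and mostly whole; the 84 values of the 7 members were all whole. The methods name an alignment mode that uses orientation and uniquely matched reads, but not whether the kit marks strand or how reads were counted by strand. The values were rounded and tested with edgeR 4.0.16 in R 4.3.3 (TMM scaling, filterByExpr, quasi-likelihood F test) on all 12 libraries with 4 group means, with Benjamini-Hochberg adjustment over 14867 genes and a threshold of 0.05. CPM values are TMM-scaled, log2 CPM has a prior count of 2, and RPKM uses the union of exons in WBcel235, Ensembl release 115, matched by WormBase ID. The code was tested on simulated data. Alternatives were DESeq2 1.42.0, other scalings and filters, fits on the 6 libraries of a comparison, replicate blocks and leaving out each library.

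Groups came from the labels. The study describes its data in general as biological replicates, with each RNA-seq condition repeated, but neither it nor the labels say that these samples were separate cultures, so p-values measure the spread between these samples, part of which may be technical. No pair of replicates agreed within sampling noise. Same-numbered samples deviated together in WT upon RNAi (correlations of 0.288 to 0.723) and, by the number in the title, across the genotypes on EV (0.169 to 0.467), but not in *lin-40*(*yth27*) upon RNAi (−0.324 to −0.113 by title, and 0.29 and −0.113 for the 2 shared short-name numbers) or across the genotypes upon *cco-1* RNAi (−0.376 to −0.168). The labels also carry a short name whose number differs from that of the title in some samples. Intervals and floors cover counting error only. The members, the lists and the tests were chosen with earlier results of these data known. Genes were named by a fixed rule: the 7 members, 4 regulators, *cox-5B* and *lin-40*, up to 3 genes called with the lowest adjusted p in each list and comparison, and the 5 genes most like *fat-7* and *fat-5*. One intestinal marker was not matched by symbol.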

Additional observations from a re-analysis of the deposited data

How the results depend on the processing

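Of 692 alternative log2 fold changes of the 7 members, 627 kept their direction and their side of the threshold, 36 lost the threshold, 7 gained it and 22 changed sign, none of these 22 past the threshold; except where a value shows it, the cause was not tested. For *fat-7* between the genotypes on EV, a filter of 10 CPM in 3 libraries gave 3.95 (adjusted p = 0.0514, edgeR), the replicate block by short-name number 3.83 (adjusted p = 0.275), and leaving out 1 library 3.76 to 3.99. Upon *cco-1* RNAi these were 6.89 (adjusted p = 0.0563), 6.96 (adjusted p = 0.104) and 6.41 to 8.72, and in the fit on the 6 libraries *fat-7* did not pass the low-count filter and has no value. *fat-7* passed the filter of 10 CPM only through the *lin-40*(*yth27*) EV libraries, at 24.31 to 33.23 CPM. Its values under that filter are thus no independent check of either difference. The replicate block by title number, in which same-numbered samples are paired, gave 3.91 (adjusted p = 0.00541) on EV and 6.96 (adjusted p = 0.0112) upon *cco-1* RNAi, and changed no count of members called.

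The count of members called, 1 in each genotype comparison, was 0 in both with the 10 CPM filter and with the short-name block, 2 in both with DESeq2, and 0 upon *cco-1* RNAi in the fit on 6 libraries. It was 0 to 1 on EV and 0 to 2 upon *cco-1* RNAi when 1 library was left out. Upon RNAi in the mutant it was 3 with DESeq2, 2 with the short-name block and 0 to 1 with 1 library left out, and in WT 2 to 3 with 1 library left out and 2 in the fit on 6 libraries, where *fat-6* (−1.17) no longer passed the threshold. In the interaction it was 1 with the short-name block (*fat-7*, 3.53, adjusted p = 0.0326), where 1023 of 14867 genes were called. With library totals, 1 of the elongation genes and 0 of the electron supply genes were called upon RNAi in WT. Apart from the short-name block in the interaction, no share of all genes called is given here for these alternatives. These counts thus describe the members and the lists only.

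The values that changed sign belonged to *fat-1* to *fat-4* and *fat-6*. With library totals they were −0.054 for *fat-1*, −0.188 for *fat-2* and −0.177 for *fat-3* in the interaction, 0.0062 for *fat-1* on EV, −0.048 for *fat-1* and −0.156 for *fat-6* between the genotypes upon *cco-1* RNAi, and −0.0036 for *fat-4* upon RNAi in the mutant. With the short-name block they were −0.022 for *fat-2* and −0.064 for *fat-3* in the interaction, 0.0073 for *fat-2* on EV and −0.00073 for *fat-3* upon RNAi in the mutant. For *fat-6* between the genotypes upon *cco-1* RNAi, the median of ratios gave −0.00596, no low-count filter −0.00136, DESeq2 −0.005997 and the fit on 6 libraries −0.045. With 1 library left out, that comparison ran from −0.131 to 0.131 for *fat-6*, −0.0201 to 0.217 for *fat-1* and −0.126 to 0.022 for *fat-2*, and the change of *fat-3* upon RNAi in WT from −0.024 to 0.141.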
